A study of Homo sapiens with 24 samples.

Results

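The aryl hydrocarbon receptor (AHR) pathway was followed through 8 genes: the receptor AHR, its partners ARNT and ARNT2, its repressor AHRR, and the target genes CYP1A1, CYP1A2, CYP1B1 and TIPARP. Members were all non-control probes that the array annotation assigns to 1 of these gene names. Of the 33407 gene names on the first design these are 8. They had 12 probes, of 42405 probes on the first array design and 50599 on the second, and all 12 were on both designs. The question was how the members responded to the plant flavonoids genistein, a soy isoflavone, and wogonin, a methoxylated flavone, next to the other treatments in the series.

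RNA of treated cells (Cy5) and of control cells (Cy3) was hybridised together on 24 two-colour arrays, 1 for each treatment and cell line. Genistein was given to the prostate cancer lines PC3 and DU145. The study's methods state 25 µM for 4 days with DMSO as vehicle, while the labels call the control "no treatment". Wogonin was given to SAS and FaDu, head and neck squamous carcinoma lines, against DMSO, at a dose and time that the labels do not state. The other 20 arrays held si-CAV2 in A498 and 786O (renal carcinoma lines), miR-145 in PC3, DU145 and LNCap (a prostate cancer line), miR-375 in FaDu, si-LAMB3 in FaDu and SAS, miR-23b, miR-24 and miR-27b in PC3, miR-29a in SAS, miR-143 and si-GOLM1 in DU145 and PC3, miR-27b in 786O and A498, and CXCL10 for 12 and 24 hours in 786O. Controls of the microRNA and siRNA arrays were control transfections, and those of CXCL10 were untreated cells. The flavonoid arrays and 12 of the others shared the first design, on slides 1 and 2. The remaining 8 were on the second design, on slide 3. No dyes were swapped, and no treatment had a second array in the same line.

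AHR is a ligand-activated transcription factor that waits in the cytoplasm with chaperones. On binding planar aromatic compounds, many plant flavonoids among them, it enters the nucleus, pairs with ARNT and switches on genes with the core motif GCGTG near their start. CYP1A1, CYP1A2 and CYP1B1 encode cytochrome P450 enzymes that oxidise aromatic compounds and oestrogens, while AHRR and TIPARP, themselves targets, damp the receptor.

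The core motif was looked for on both strands of RefSeq promoter windows (GRCh38.p14, 250 bases before to 50 after a gene's start), which were matched for 6 of the 8 members. It was present in 36.54% of 35116 windows, so its presence alone sets no gene apart. A single copy was found in the windows of CYP1A1 and AHR, and the copy of AHR lay after the start. AHRR had 1 copy in 1 window and 2 in a second, TIPARP had 2 in 1 of 3 windows, and ARNT and CYP1A2 had none in theirs. The 250 bases before the start are shown for 3 target genes whose ratios are described below. Capitals mark the motif, which reads CACGC where it lies on the opposite strand.
CYP1A1 (chr15:74725529-74725778, minus strand): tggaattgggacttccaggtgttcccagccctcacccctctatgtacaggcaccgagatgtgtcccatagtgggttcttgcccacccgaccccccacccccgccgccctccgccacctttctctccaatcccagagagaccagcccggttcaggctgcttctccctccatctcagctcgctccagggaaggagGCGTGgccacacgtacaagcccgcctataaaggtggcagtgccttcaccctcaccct
AHRR (chr5:321464-321713, plus strand): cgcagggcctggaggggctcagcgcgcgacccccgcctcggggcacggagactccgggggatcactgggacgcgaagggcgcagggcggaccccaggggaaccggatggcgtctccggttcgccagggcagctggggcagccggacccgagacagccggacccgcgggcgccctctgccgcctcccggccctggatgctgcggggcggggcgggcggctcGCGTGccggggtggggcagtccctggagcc
TIPARP (chr3:156674340-156674589, plus strand): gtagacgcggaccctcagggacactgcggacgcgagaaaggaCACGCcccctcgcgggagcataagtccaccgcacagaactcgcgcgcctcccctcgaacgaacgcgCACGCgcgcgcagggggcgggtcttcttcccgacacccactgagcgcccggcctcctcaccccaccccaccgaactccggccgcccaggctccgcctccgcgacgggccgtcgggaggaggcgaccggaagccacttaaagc

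The array probes are 60-base oligonucleotides whose positions the annotation gives on hg19. AHR was measured at chr7:17384999-17385058 (AHR probe 1) and chr7:17382763-17382822 (AHR probe 2). CYP1B1 was measured at chr2:38295444-38295503 (CYP1B1 probe 1) and chr2:38297706-38297765 (CYP1B1 probe 2). Single usable probes lay at chr15:75012562-75012621 (CYP1A1), chr15:75048866-75048925 (CYP1A2), chr3:156424310-156424369 (TIPARP), chr5:438030-438089 (AHRR), chr1:150783044-150783103 (ARNT) and chr15:80890050-80890109 (ARNT2). Second probes of ARNT2 and TIPARP were above background on 1 and 0 of the 16 arrays of the first design and were not tested. Exon and UTR positions of the probes were not analysed here. Over the 16 arrays the paired probes gave like ratios, with Pearson r = 0.91 for AHR and 0.99 for CYP1B1, across arrays that share slides.

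In the control channel, 53.2% to 67.6% of spots counted as well above background, and the software's error of a log2 ratio had a median of 0.207 to 0.241 per array. This error is technical and covers 1 array. The siRNA targets were lower on all 6 siRNA arrays, at log2 ratios of -4.19 to -0.89. Control channels of the same line correlated at 0.902 to 0.994 (Spearman) and those of different lines at 0.772 to 0.916. The marker genes of LNCap (KLK3, TMPRSS2), of the squamous lines (KRT5, KRT14) and of the renal lines (PAX8, PAX2) were above background on all arrays of those lines, and the squamous marker TP63 on all 3 FaDu and 2 of 3 SAS arrays. KRT5, TP63 and PAX2 were above background in no other line. The rest did not set the lines apart: PAX8 was above it on 7 of 7 PC3 and 3 of 3 FaDu arrays. TMPRSS2 was above it on 7 of 7 PC3 arrays, and KLK3 and KRT14 on 4 of 4 DU145 arrays. The 2 PC3 control channels of slide 3 stood apart from PC3 on slides 1 and 2, at 0.902 to 0.939 against 0.964 to 0.994 among the latter. They enter only values that use all 24 arrays. In RNA of whole cultures, fewer expressing cells and less RNA per cell cannot be told apart.

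CYP1B1 gave the largest member ratio of the flavonoid arrays. Its log2 ratio (treated over control) was 3.17 with genistein in PC3, -0.60 with genistein in DU145, -1.71 with wogonin in SAS and -0.16 with wogonin in FaDu. On the 20 arrays of other treatments it lay between -2.85 and 2.12, with a median of -0.27. Genistein in PC3 was thus above every other array, DU145 was on the opposite side of 0, and wogonin in SAS lay within the range of other treatments. Probe 2 gave 3.43, -0.56, -1.55 and -0.37 in the same order. The 2 genistein lines started from different levels, given here as log2 signal of probe 1 minus the array's 75th percentile. In PC3 the level was -0.43 in control cells and 2.74 with genistein, and in DU145 it was 3.42 and 2.84, so the treated cells of both lines had like levels.

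CYP1A1, the classic AHR-induced enzyme, was dim in most lines. With genistein in DU145 its log2 ratio was 0.91 with a software error of 0.23. In PC3 only the treated channel was above background, and CYP1A1 measured 1.45-fold higher there, with a software error of 0.40 on the log2 scale. Folds given as at least divide the treated level by the dimmest signal that counts as above background. Each CYP1A1 fold divides by the measured signal of the dim channel, which was higher than that, and is not a bound. With wogonin the log2 ratio was -0.77 in FaDu, and in SAS neither channel was above background. The 11 other arrays with both channels above background ranged from -1.61 to 0.35 with a median of -0.24, so DU145 lay above these 11 and FaDu within them. Where only the treated channel was above background, CYP1A1 measured 5.35-fold higher with miR-24 in PC3 and 1.96-fold higher with si-LAMB3 in SAS. The software errors of these log2 ratios were 0.36 and 0.46. On these values DU145 with genistein was not the highest of all arrays.

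CYP1A2, the related P450 best known from liver, stayed within a narrow range. It was at -0.54 with genistein in PC3, -0.27 with genistein in DU145, 0.041 with wogonin in SAS and -0.11 with wogonin in FaDu. Other treatments lay between -0.15 and 0.45 with a median of 0.082, so both genistein arrays were below all 20, each by less than 2 software errors (0.28 in PC3 and 0.24 in DU145).

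TIPARP, an ADP-ribosyltransferase that modifies AHR and limits it, went in opposite directions with the 2 flavonoids. With genistein it was at 0.66 in PC3 and 1.18 in DU145, and with wogonin at -1.13 in SAS and -0.69 in FaDu. Other treatments lay between -0.71 and 0.99 with a median of 0.049. DU145 with genistein was above and SAS with wogonin below all 20 of them, while PC3 and FaDu lay inside that range. Levels follow on the scale used for CYP1B1. In DU145 the control cells of the genistein array had the lowest TIPARP level of that line's controls. It was 2.18 against 3.22, 3.97 and 4.07, the last 2 on the second design. The treated level of 3.37 lay within these others, and in PC3 that of 4.24 lay within its other controls (3.06 to 4.28). With wogonin the treated levels were below all controls of the line, at 2.10 in SAS (lowest control 2.89) and 1.85 in FaDu (2.16). The flavonoids were used in different lines and are set side by side here without a comparison.

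AHRR, which competes with AHR for ARNT, had the lowest ratio of the flavonoid arrays. It was at -2.68 with wogonin in SAS, 0.32 with wogonin in FaDu, 0.21 with genistein in PC3 and -0.34 with genistein in DU145. The 9 other arrays with both channels above background ranged from -1.97 to 1.05 with a median of -0.19, so SAS with wogonin was below all of these. The control cells of that array also had the highest AHRR level of the 24, at 0.72 on the scale of log2 signal minus the 75th percentile, against -0.30 and -0.95 in the 2 other SAS controls.

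**Figure D1:**
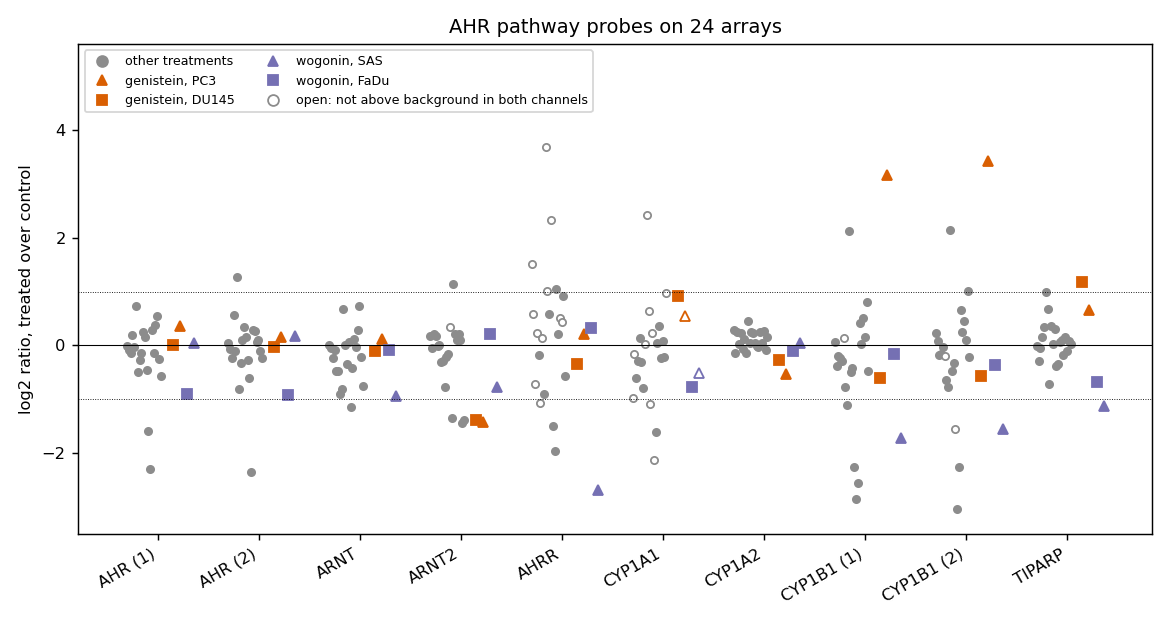
Log2 ratio (treated over control) of the 10 tested member probes on each of 24 arrays. Numbers in parentheses are the first and second probe of a gene, dotted lines mark a log2 ratio of 1 and -1, and open symbols were not above background in both channels. CYP1B1 with genistein in PC3 (3.17 and 3.43) and AHRR with wogonin in SAS (-2.68) lie outside the other treatments measured in both channels.

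Of the receptor and its partners, AHR itself moved little with genistein. Probe 1 was at 0.37 in PC3, 0.015 in DU145, 0.041 with wogonin in SAS and -0.91 with wogonin in FaDu, and probe 2 at 0.15, -0.022, 0.18 and -0.93. Other treatments ranged from -2.29 to 0.73 with a median of -0.11 (probe 1), so all 4 flavonoid arrays were within them. ARNT, with which AHR pairs in the nucleus, was at 0.12, -0.11, -0.94 and -0.083 in the same order. These values lay within the -1.15 to 0.74 of other treatments. ARNT2, a second partner best known from nerve and kidney cells, was at -1.42 in PC3 and -1.39 in DU145 with genistein, -0.77 in SAS and 0.20 in FaDu with wogonin. Other treatments spanned -1.44 to 1.14 with a median of -0.00088, and the low end was si-LAMB3 in FaDu (-1.44) and SAS (-1.40).

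By size, 3 of 10 member probes with a channel above background were past a log2 ratio of 1 in either direction with genistein in PC3, where 17.8% of all such probes were (ARNT2 and both CYP1B1 probes). With genistein in DU145 it was 2 of 11 (ARNT2 and TIPARP) against 12.5% of probes. With wogonin in SAS it was 4 of 9, all lower (AHRR, TIPARP and both CYP1B1 probes), against 14.1%, and in FaDu 0 of 10 against 11%. These counts have no replicate check, and probes of 1 gene are not independent.

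The flavonoid arrays were set against the 12 other treatments of the first design in limma, with p-values adjusted over all 30030 tested probes (Benjamini-Hochberg). The spread in this test is that between arrays of different treatments and lines, since no treatment had a second array in a line. None of the 10 member probes was called for both flavonoids together, where 0.0566% of all probes were. No member had an unadjusted p under 0.05 in that test, and 3749 of all probes did. The smallest member value was that of CYP1A2 (limma adjusted p = 0.405), at a difference of -0.31 ± 0.15 (SE) on the log2 scale. The median difference was 0.10 over members and 0.029 over all probes. For CYP1B1 probe 1 the 95% interval of the difference ran from -1.06 to 2.54, and for CYP1A1 from -1.11 to 1.35, and both reach past a log2 difference of 1 in each direction.

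For genistein alone, 1.44% of all probes were called (182 higher and 249 lower), and 0 of 10 member probes. With cell line as a block, 0 probes were called (3436 had an unadjusted p under 0.05), from 7 residual degrees of freedom. In limma without that block, 2 of 10 member probes had an unadjusted p under 0.05, and so did 4605 of all 30030 probes. CYP1A2 was lower by -0.50 ± 0.18 (SE, limma adjusted p = 0.199) in 2 of 2 arrays, and TIPARP was higher by 0.83 ± 0.34 (adjusted p = 0.252) in 2 of 2. The difference of CYP1B1 probe 1 was 1.86 ± 1.09 (adjusted p = 0.444), which rested on PC3: with the PC3 array left out it was -0.031, and with the DU145 array left out 3.74. ARNT2 was at -1.09 ± 0.54 (adjusted p = 0.348) and at -1.59 within slide 1 (adjusted p = 0.116). For TIPARP (levels given above) and ARNT2 the treated levels of both lines lay within those of the line's other control cells. Those of ARNT2 were -3.38 in PC3 and -0.021 in DU145, against -3.80 to -0.93 and -0.98 to 0.24 in the other controls. How far these differences rest on the control cells of the genistein arrays was not tested.

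For wogonin alone, limma called 0% of all probes (2813 had an unadjusted p under 0.05) and 0 of 10 members. Only TIPARP among the members had an unadjusted p under 0.05, at -0.99 ± 0.34 (SE, limma adjusted p = 0.340) and lower in 2 of 2 arrays. AHRR was at -1.36 ± 1.12 (limma adjusted p = 0.788), with its 2 arrays on opposite sides of 0. The arrays of a treatment are different lines, so these tests measure the spread between lines and treatments. A dye effect that is constant for a probe is in every ratio and is subtracted in these differences.

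**Figure D2:**
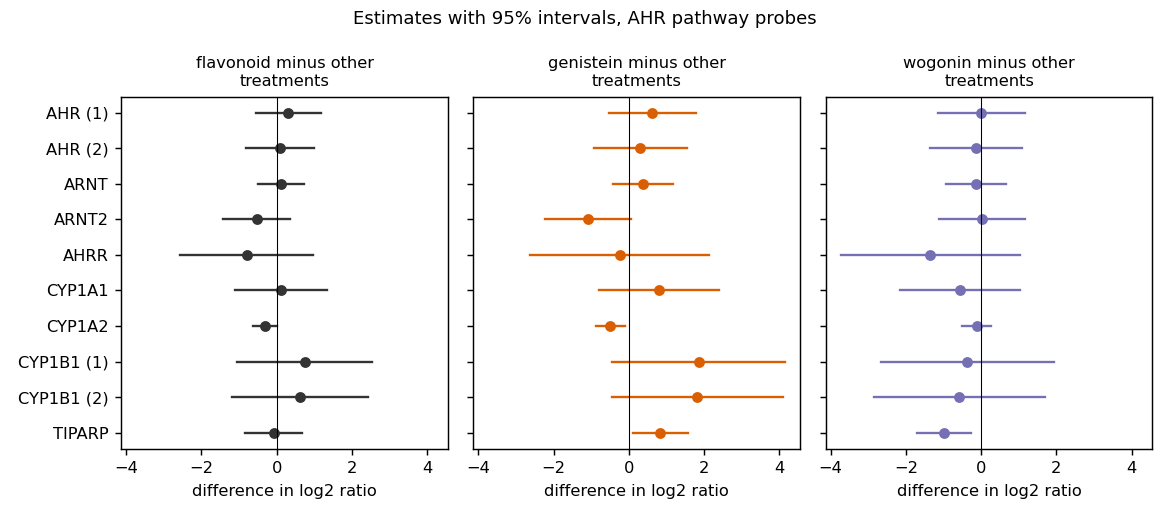
Difference in log2 ratio (points) with 95% intervals (bars) for the 10 member probes, in limma, for both flavonoids (4 arrays), genistein (2) and wogonin (2), each against 12 arrays of other treatments. The intervals of CYP1A2 and TIPARP leave out 0 for genistein and that of TIPARP for wogonin, before adjustment over 30030 probes.

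The widest member responses outside the flavonoids were in 3 microRNA arrays. Over the 20 arrays of other treatments, 27 of 191 member values (14.1%) were past a log2 ratio of 1, 9 higher and 18 lower, against 8.54% of all probe values. Of the 27, 18 came from miR-375 in FaDu, miR-24 in PC3 and miR-29a in SAS, which were singled out after their values were seen, and 10 arrays had none. With a background correction that damps dim probes (normexp with an offset of 50), 12 values were past 1 in place of 27.

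With miR-29a in SAS, 7 of 10 member probes were past 1, all lower, where 10.5% of all probes were. CYP1B1 was at -2.85 and -3.04 (probes 1 and 2), AHR at -1.59 (probe 1) and -0.61 (probe 2), AHRR at -1.50, ARNT2 at -1.34 and ARNT at -1.15. CYP1A1 measured 4.39-fold lower (log2 ratio -2.13, software error 0.55), with only the control channel above background. TIPARP at -0.34 and CYP1A2 at 0.041 did not follow, so 2 targets were within the limit while the receptor (on 1 of its 2 probes), both partners, the repressor and 2 target enzymes were below it. With normexp, only CYP1B1 (-2.69 and -2.12) and AHR probe 1 (-1.39) stayed past the limit. ARNT (-0.34), ARNT2 (-0.62), AHRR (-0.88) and CYP1A1 (-0.41) were then lower but within it.

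With miR-375 in FaDu, 7 of 10 were past 1, of which 6 were lower, where 22.7% of all probes were. AHR was at -2.29 and -2.36 (probes 1 and 2), the lowest of all 24 arrays on each, CYP1B1 at -2.55 and -2.25, AHRR at -1.97 and CYP1A1 at -1.61. ARNT2 was higher, at 1.14, the highest of the 24 for that probe, and TIPARP was at 0.070. The lower members thus included the receptor and 3 of its targets. The control cells of this array had the highest levels of these genes among the FaDu controls, as given below. After miR-375, the levels of CYP1B1 (0.68, probe 1) and CYP1A1 (-0.90) were still above both other FaDu controls (highest 0.20 and -1.69). AHRR (-2.68) and AHR (0.024, probe 1) were below both (lowest -2.47 and 0.41).

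With miR-24 in PC3, 4 of 10 were past 1, all higher, where 26.2% of all probes were. AHRR was at least 9.82-fold higher and CYP1A1 measured 5.35-fold higher, each with only the treated channel above background. CYP1B1 was at 2.12 and 2.15. AHR was at -0.13 and 0.093, so the 3 targets were higher with the receptor's messenger near its control level. TIPARP was at 0.35 and CYP1A2 at 0.45.

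CYP1B1 is a described target of miR-27b, and this microRNA was transfected into 3 lines. Its log2 ratio was -2.26 in PC3, -0.49 in 786O and -0.42 in A498 (probe 1). Probe 2 was at -0.48 in 786O and -0.33 in A498 and had neither channel above background in PC3. All 3 lines were lower, and the difference between them was not tested. The level in control cells was 1.96 in 786O and 4.84 in A498, against -1.12 in PC3. AHRR was at least 3.66-fold higher with miR-27b in PC3. With miR-23b in PC3, CYP1B1 was at -1.10, so the PC3 arrays ranged from -2.26 (miR-27b) to 3.17 (genistein).

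Other single values past 1 were few. With miR-145 in LNCap, where AHR was dimmest, its ratio was 0.73 (probe 1) and 1.28 (probe 2), against -0.50 and -0.82 in PC3 and -0.035 and -0.097 in DU145. With si-LAMB3, CYP1B1 was at 0.80 and 1.01 in FaDu and at -0.48 and -0.22 in SAS. AHRR was at 1.05 with si-CAV2 in 786O. CYP1A1 was at -1.10 (software error 0.55) with miR-27b in A498, where only the control channel was above background. On the second design, miR-143, si-GOLM1 and CXCL10 left every member probe with a channel above background within a log2 ratio of 1 on all 6 arrays. Of all such probes, only 1.6% to 4.22% were past 1 on these arrays.

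**Figure D3:**
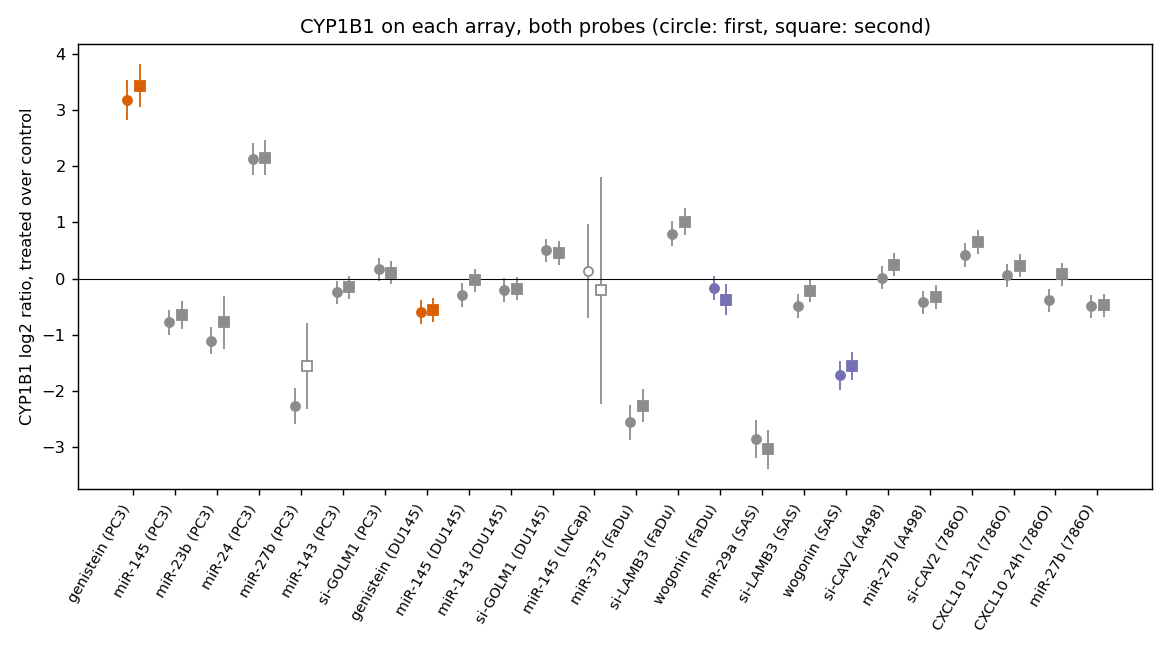
CYP1B1 log2 ratio (treated over control) on each array, ordered by cell line, for probe 1 (circles) and probe 2 (squares), with bars for the software error of 1 array. Open symbols were not above background in both channels. PC3 runs from -2.26 (miR-27b) to 3.17 (genistein) on probe 1.

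Members also differed between the control cells of the lines. These were control transfections, DMSO-treated cells or cells labelled untreated, and kinds of control were mixed within a line. In the control channels of PC3 (3 samples, after averaging the miR-23b, miR-24 and miR-27b controls), DU145 (2), FaDu (3) and SAS (3), 7 of 10 member probes differed between lines in limma's F-test, where 53.2% of all probes did. These were ARNT (adjusted p = 0.0164), ARNT2 (0.0315), AHRR (0.00150), CYP1A1 (0.0164), CYP1B1 (0.0168 and 0.00540) and TIPARP (0.0289). AHR did not pass (limma adjusted p = 0.426 and 0.513), nor did CYP1A2 (0.0627). The labels do not say whether these samples came from separate cultures, so the p-values measure the spread between samples, which may be technical.

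AHR levels, as log2 Cy3 signal of probe 1 minus the array's 75th percentile, had medians of 1.98 in PC3 (7 arrays), 1.78 in 786O (4), 1.74 in FaDu (3), 1.70 in SAS (3), 1.69 in A498 (2) and 0.85 in DU145 (4). Each neighbour in this order overlapped the next in range, except that DU145 (0.31 to 1.42) lay below A498 (1.52 to 1.85). LNCap (1 array) was far below, at -3.06, and also had the lowest TIPARP (-0.26) and a CYP1B1 not above background. Its CYP1A1 was -1.67, against medians of -4.76 to -1.69 in the other lines.

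CYP1B1 (probe 1) was highest in A498 (median 4.88), 786O (4.19), DU145 (3.40) and SAS (2.88), with a lower median in FaDu (0.20) and PC3 (-0.43). Neighbours in this order overlapped, save that A498 lay just above 786O, at 4.84 to 4.93 against 1.96 to 4.83. Within PC3 the slides did not overlap: levels were -1.13 to 0.64 on slides 1 and 2, and 4.20 and 5.67 on slide 3, whose 2 PC3 channels stood apart. FaDu controls were also uneven, at 3.21 on slide 1 (miR-375 array) and 0.20 and -0.28 on slide 2. The same FaDu control was the highest of the 3 for CYP1A1 (0.69 against -1.69 and -2.40), AHRR (-0.73 against -2.40 and -2.47) and AHR (2.30 against 0.41 and 1.74). Slide, culture and kind of control cannot be told apart here. After miR-375 the level of CYP1B1 was 0.68 and that of CYP1A1 was -0.90, closer to the slide 2 controls than its own control was.

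AHRR was highest in SAS (-0.95 to 0.72) and above background in 2 of 7 PC3, 1 of 4 786O and 0 of 1 LNCap controls. ARNT2 was highest in 786O (median 1.36) and A498 (0.89) and lowest in PC3 (-3.27), and ARNT ran from a median of -1.07 in DU145 to -2.46 in A498. TIPARP had medians of 1.80 (A498) to 3.60 (DU145) outside LNCap, with overlapping ranges in most neighbours.

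**Figure D4:**
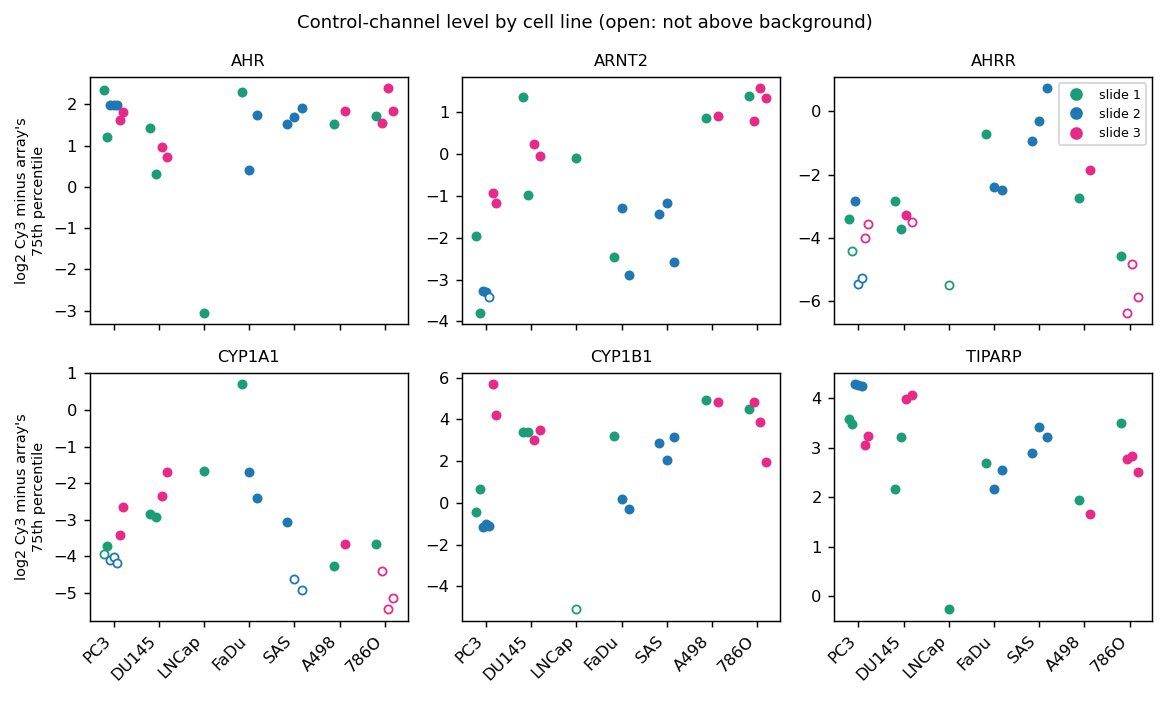
Control-channel level (log2 Cy3 signal minus the array's 75th percentile) of 6 members by cell line, 1 point per array, coloured by slide. Open points were not above background. Levels may be compared within a panel only; PC3 of slide 3 is above the other PC3 arrays for CYP1B1, at 4.20 and 5.67.

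Other genes of the pathway gave no call in the test of both flavonoids together. Of the chaperones that hold AHR in the cytoplasm, 0 of 6 probes (3 genes) were called, with a median difference of -0.36, against 0.029 over all probes, and HSP90AA1 was at -0.40 ± 0.28 (SE, limma adjusted p = 0.588). Of related bHLH-PAS factors that share ARNT or its fold, 0 of 14 probes (10 genes) were called, and EPAS1, a hypoxia factor, was at 1.14 ± 0.69 (adjusted p = 0.518). Of conjugating and oxidising enzymes, 0 of 6 probes (4 of 7 genes) were called, and UGT1A6 was at 1.33 ± 0.66 (adjusted p = 0.421). Its log2 ratio was 2.98 with wogonin in FaDu and -0.68 in SAS, and 0.091 and 0 with genistein, and its signal may come in part from other UGT1A genes, which share exons. Of enzymes that make tryptophan-derived ligands, 0 of 4 probes (3 of 5 genes) were called, and IDO1 was at -1.60 ± 1.18 (adjusted p = 0.608). Of 6 other described targets, 0 of 7 probes were called, and SLC7A5, an amino acid transporter, was at 1.40 ± 0.40 (adjusted p = 0.179). Its ratio was 2.51 in PC3 and 0.88 in DU145 with genistein, and 0.040 in SAS and 0.21 in FaDu with wogonin. Over these 5 lists the limma test gave unadjusted p under 0.05 for 3 of 37 probes, and for 3749 of all 30030.

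The genes whose log2 ratios ran most like a member's over the 16 arrays were found among about 20545 probes and are given as a description. For CYP1B1 they were LEMD2 (Pearson r = 0.90), ERBB2IP (0.85) and SMAD7 (0.85). For CYP1A1 they were ASCC1 (0.88), BNIP2 (0.86) and LZIC (0.85), for TIPARP MICAL1 (0.85), THC2650095 (0.84) and PDGFA (0.83), and for AHR CBLB (0.84), PPIB (0.82) and ZNF555 (0.80). No member was among another's closest 3.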

How the data were processed

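Each array compared Cy5-labelled RNA of treated cells with Cy3-labelled RNA of control cells. The authors scanned the arrays with Agilent Feature Extraction (version 10.7.3.1) and deposited, for each spot, intensity values of both channels that the software had corrected for background and dye, and a log10 ratio of Cy5 over Cy3. The deposited error of that ratio is a score that the software modelled from noise within a single array. The ratio was multiplied by 3.3219 to the log2 scale. The deposited series matrix of log10 ratios differed from it by at most 0 over 62976 features. The labels name Trizol for RNA extraction and the study's methods name another kit.

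Control spots and spots with outlier flags (419 to 614 per array) were left out, no spot was saturated, and spots of a probe were averaged. Tested probes were well above background in at least 1 channel on 4 or more of the 16 arrays of the first design (30030 probes). Limma 3.58.1 in R 4.3.3 fitted flavonoids, and genistein and wogonin apart, against the 12 other treatments without covariates, with Benjamini-Hochberg adjustment and a limit of 0.05. Estimates are given with standard errors. Levels are log2 Cy3 signals minus the array's 75th percentile, and in the F-test a probe was above background on 2 or more arrays. Bounds used the dye-normalised processed channels scaled by Aquantile and have no balanced dye swap. The fit was tested on simulated data. The number of arrays limits the precision. Figures were drawn in Python 3.11.15 with matplotlib 3.10.9.

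The members, the pathway lists and the tests were chosen with earlier results of these data known. Genes named were all members, the gene with the largest difference in each of 5 lists, and the 3 most alike in ratio to AHR, CYP1A1, CYP1B1 and TIPARP. A gene of the chaperone list and a marker gene are not reported here, and the lists were computed without them. Alternatives covered background correction, centring, dim probes, slide, cell line, left-out arrays, averaging of 3 PC3 arrays, both designs together and the series matrix.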

Additional observations from a re-analysis of the deposited data

Results flagged for a closer look

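CYP1B1 moved in opposite directions with genistein in its 2 lines, each by more than 2 software errors. The log2 ratio in PC3 minus that in DU145 was 3.77 on probe 1 and 3.99 on probe 2. With 1 array per line this difference was not tested.

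AHR moved in opposite directions with miR-145 in LNCap and PC3. The ratio in LNCap minus that in PC3 was 1.23 on probe 1 and 2.1 on probe 2, from an AHR level in LNCap that was the lowest of the 24 control channels. With si-LAMB3, FaDu minus SAS was 1.49 for AHRR and 1.28 for CYP1B1 probe 1, with the lines on opposite sides of 0. These differences were not tested.

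The control level of CYP1A2 in PC3 on the miR-143 array, -1.19, lay apart from the other 6 PC3 arrays. It is 1 of the 2 PC3 channels of slide 3, and levels across the designs were each set by the array's own percentile. CYP1A2 control levels were also higher on the second design than on the first in DU145 (-1.29 and -1.28 against -3.03 and -2.78) and A498 (-1.55 against -3.45). In 786O the designs overlapped (-3.14 to -1.28 against -3.02). It was the only one of 40 groups with a sample set apart from the rest. How often such a sample arises by chance was not tested.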

How the results depend on the processing

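No member probe was called in any of the 3 contrasts under the alternatives run, with a single exception: CYP1A2 for genistein over the 24 arrays of both designs (-0.5098, limma adjusted p = 0.0467, 1 member probe called). Without the 2 PC3 arrays of slide 3, an alternative chosen after seeing the data, its adjusted p was 0.067. Counts over all probes moved more. For both flavonoids together (17 called) they were 77 with normexp, 69 with no background correction, 37 with probes above background on all 16 arrays, 28 with slide as a block, 403 over 24 arrays and 255 over 22. For genistein (431) they were 971, 1102 and 232 (normexp, no correction, slide block), 9 within its slide, 1586 over 24 arrays and 1279 over 22. For wogonin (0) they were 5 with normexp, 41 with no filter, 8 with all 16 arrays above background, 5 with the slide block, 2 within its slide, 6 with 3 PC3 arrays averaged, 188 over 24 arrays and 134 over 22. The causes were not tested.

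With every array of the first design kept, signs turned for AHR probe 2 for both flavonoids (-0.0588 over 24 arrays, -0.0108 over 22), ARNT (-0.0482 over 24), and ARNT2 for wogonin (-0.0299 with no correction, -0.0351 median centred, -0.1202 over 24, -0.0868 over 22), and for CYP1B1 for wogonin with cell line as a block (0.3328 and 0.16, probes 1 and 2). Centring moved the median of all probes by -0.039. Member values past 1 on other arrays fell from 27 to 12 with normexp.

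Leaving out 1 array in turn kept 0 member calls in each contrast, while counts over all probes ran from 1 (without wogonin in SAS) to 44 (without miR-375 in FaDu) for both flavonoids, 23 (without genistein in PC3) to 787 (without miR-375) for genistein, and 0 to 22 (without miR-375) for wogonin. Differences for both flavonoids ran from 0.1449 to 0.576 and -0.1056 to 0.3445 for AHR (probes 1 and 2), -0.01 to 0.3441 for ARNT, -0.8816 to -0.3405 for ARNT2, -1.1171 to -0.1144 for AHRR, -0.1743 to 0.3873 for CYP1A1, -0.3958 to -0.2022 for CYP1A2, -0.2578 to 1.3717 and -0.443 to 1.2175 for CYP1B1, and -0.4711 to 0.2985 for TIPARP. For genistein CYP1B1 ran from -0.0307 to 3.7409 and -0.1764 to 3.8151, and for wogonin from -1.1474 to 0.4048 and -1.1666 to 0.0139, with ARNT2 from -0.4609 to 0.516. The array without which CYP1B1 turned was genistein in PC3, and wogonin in SAS for wogonin.

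The slide of the treatment alone could not be used for both flavonoids together, which lie on 2 slides. No paired analysis by replicate number was possible because the labels give none, but lines are shared between treatments. With cell line as a block, an alternative chosen after seeing the data, limma called 0 probes in each contrast, with an unadjusted p under 0.05 for 3003 (both flavonoids), 3436 (genistein) and 2093 (wogonin). Ratios of AHRR and CYP1A1 rest on dim signals, and 13 of 24 arrays had both channels above background for each. CYP1A2 was above it in both channels on all 24, but its genistein controls were also dim (levels of -2.70 in PC3 and -3.03 in DU145). With normexp its genistein ratios were -0.16 in PC3 and -0.10 in DU145, and those of ARNT2 were -0.70 and -1.20.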

Other observations

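IDO1, the enzyme that opens tryptophan's ring on the way to kynurenine, an AHR ligand, had log2 ratios of 5.94 in PC3, 3.53 in DU145 and 5.57 in LNCap with miR-145, against -1.71 to 0.32 on the 13 other arrays of the first design. It was looked at after its values were seen. On the same 3 arrays CYP1A1 was at -0.79, 0.13 and -0.31, CYP1B1 probe 1 at -0.78 and -0.29 in PC3 and DU145, and AHR probe 1 at -0.50, -0.035 and 0.73. TIPARP was at 0.68, 0.35 and 0.99, and its values in LNCap and PC3 were the highest and the second highest of the 20 arrays of other treatments.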
